A study of Mus musculus with 2 samples.

Results

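The chemokines and chemokine receptors of brain endothelium were taken as every gene on the arrays whose symbol starts with Ccl, Cxcl, Ccr, Cxcr or Ackr followed by a digit, or is Cx3cl1, Cx3cr1, Xcl1, Xcr1, Ccrl2 or Darc. The rule found 55 genes of the 18194 genes with a probe set of their own, 33 ligands and 22 receptors, with 87 probe sets in all. Where a gene had several probe sets, as 20 of the 55 did, the one with the highest mean of both arrays stood for it.

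The 2 samples, from normal brain vasculature of C57BL/6 mice, were separated by fluorescence activated cell sorting. One held CD31+CD133+ cells, called Prom1+ after the gene of CD133, and the other CD31+CD133- cells, called Prom1-. Their total RNA was amplified, labelled with biotin and hybridised to Affymetrix Mouse Genome arrays, 1 array per population. With 1 array each there is no replicate, so every difference below is a description with no p-value, and how many mice stood behind each array is not given in the sources used here. The populations are sorts and not lineages, and other cells in the gate are described with their markers below.

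Every value below called a signal is a multiple of the median of its own array, given for Prom1+ or for Prom1-, which stand for the arrays so labelled. A floor was set at a signal of 1.67, and a gene beneath it on both arrays is said to be under the floor. Where only 1 signal was beneath it, that signal was raised to the floor and the fold is a bound. Folds are Prom1+ over Prom1-, and a gene was counted as higher or lower when the fold was at least 2. As the only error the files hold, log2 ratios of probe sets of the same gene differed by an SD of 0.54 over 3930 genes, an error that does not cover animals or sorts. Prom1 itself did not separate the arrays, with a signal of 159 for Prom1+ and 196 for Prom1-. Its log2 ratio of -0.30 was within that SD, and probe sets with a mean log2 signal of 7 to 8 had a median of -0.23. Every direction below therefore rests on the labels. The sort was made on surface protein, which the arrays do not measure. Pecam1, the gene of CD31 itself, had a signal of 69.2 for Prom1+ and 48.2 for Prom1-.

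Chemokines are small secreted or membrane-bound proteins that direct migrating cells, and they signal through receptors that couple to inhibitory G proteins. CXC ligands of the Cxcl1 type attract neutrophils through Cxcr2, CC ligands of the Ccl2 and Ccl3 types attract monocytes, macrophages and T cells, and a homeostatic set led by Cxcl12 guides and retains cells. Atypical receptors bind chemokines without G protein signalling and remove, transport or present them. In brain vessels the luminal endothelium can display chemokines to blood leukocytes, whereas microglia carry Cx3cr1, the receptor of the neuronal and endothelial ligand Cx3cl1.

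Promoters are shown for a selection of members, since NF-kappaB, a factor known to induce many inflammatory chemokines, binds sites of the kind GGNNNTTCC. Cxcl3 is shown although it was under the floor. Ccl27a, Ccr9 and Cx3cr1, which were past 2-fold and had no match, are not shown. The runs shown thus hold matches more often than the members do, and counts over all members follow them. Each run holds the 250 bases before the gene's start in RefSeq on GRCm38.p6, 5′ to 3′ on the gene's strand, and capitals mark every match to GGNNNTTCC on either strand.
Cxcl1, chr5:90890995-90891244, plus strand: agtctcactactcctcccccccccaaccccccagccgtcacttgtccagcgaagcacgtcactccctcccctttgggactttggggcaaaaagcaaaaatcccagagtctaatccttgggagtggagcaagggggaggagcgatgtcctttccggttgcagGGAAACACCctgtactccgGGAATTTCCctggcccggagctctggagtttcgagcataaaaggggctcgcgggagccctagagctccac
Cxcl2, chr5:90903649-90903898, plus strand: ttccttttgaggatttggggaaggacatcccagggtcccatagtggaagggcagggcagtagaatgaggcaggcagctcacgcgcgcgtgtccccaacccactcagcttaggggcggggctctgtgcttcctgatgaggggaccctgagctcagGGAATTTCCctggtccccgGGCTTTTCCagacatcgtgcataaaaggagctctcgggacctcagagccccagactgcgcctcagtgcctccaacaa
Cxcl3, chr5:90785851-90786100, plus strand: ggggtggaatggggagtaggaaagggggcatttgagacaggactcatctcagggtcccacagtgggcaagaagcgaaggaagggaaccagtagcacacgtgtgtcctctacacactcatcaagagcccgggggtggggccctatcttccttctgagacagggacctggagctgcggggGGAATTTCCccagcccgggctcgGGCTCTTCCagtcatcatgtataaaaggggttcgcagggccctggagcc
Cx3cl1, chr8:94771930-94772179, plus strand: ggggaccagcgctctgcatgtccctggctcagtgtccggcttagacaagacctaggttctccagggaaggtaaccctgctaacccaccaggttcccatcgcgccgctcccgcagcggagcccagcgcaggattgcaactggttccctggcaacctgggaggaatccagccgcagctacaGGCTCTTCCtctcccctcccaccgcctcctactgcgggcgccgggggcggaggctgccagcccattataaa
Ackr1, chr1:173333504-173333753, minus strand: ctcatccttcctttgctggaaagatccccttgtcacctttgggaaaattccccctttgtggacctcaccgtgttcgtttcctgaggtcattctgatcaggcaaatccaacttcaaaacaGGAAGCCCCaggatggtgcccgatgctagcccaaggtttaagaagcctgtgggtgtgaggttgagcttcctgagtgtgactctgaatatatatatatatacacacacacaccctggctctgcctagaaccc
Ccl12, chr11:82101595-82101844, plus strand: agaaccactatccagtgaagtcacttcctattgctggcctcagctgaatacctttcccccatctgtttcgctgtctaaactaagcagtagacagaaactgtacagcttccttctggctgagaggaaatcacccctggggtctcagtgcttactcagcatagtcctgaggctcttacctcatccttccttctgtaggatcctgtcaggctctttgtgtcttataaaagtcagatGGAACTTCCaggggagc
Ccl3, chr11:83649379-83649628, minus strand: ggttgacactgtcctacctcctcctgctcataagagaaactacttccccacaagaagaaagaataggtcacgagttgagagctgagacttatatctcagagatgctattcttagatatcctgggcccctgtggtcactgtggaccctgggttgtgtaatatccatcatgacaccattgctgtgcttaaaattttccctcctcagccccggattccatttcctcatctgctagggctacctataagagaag
The same 9 bases, GGAATTTCC, stood 70 bases before the start of Cxcl1, 96 before that of Cxcl2 and 72 before that of Cxcl3. Over the 300 bases from 250 before to 50 after the start, the motif was in 16 of the 48 promoters found for 42 of the 55 members (33.3%), and in 6070 of all 32851 promoters (18.5%). Among members that were higher for Prom1+ by 2-fold or more, 4 of 5 held it, namely Cxcl1, Cxcl2, Cx3cl1 and Ackr1. Among those lower by 2-fold or more it was in 1 of the 4 with a promoter in the table, Ccl12. Members above the floor but short of 2-fold held it in 3 of 7, Ackr4, Ccrl2 and Cxcl10, and members under the floor in 8 of 26. A match is a run of letters and was not tested as a binding site, and Cxcl3 held the motif while its signal was under the floor.

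Of the 55 members, 14 were above the floor on both arrays, 3 on the Prom1+ array only, 2 on the Prom1- array only and 36 on neither. Thus 19 members (34.5%) were above the floor on at least 1 array, as were 10793 of all genes (59.3%). By the 2-fold rule 5 members (9.09%) were higher for the array labelled Prom1+, beside 16.7% of all genes. Another 5 members (9.09%) were lower by that rule, beside 2.83% of all genes. Both contrasts depend on the scaling. The share higher was 7.27% of members and 4.83% of genes with the same trimmed mean, 5.45% and 3.79% with quantile normalization, and 3.64% and 3.29% with loess. With the hybridization controls set equal it was 12.7% and 47.5%. The share lower was 9.09% of members and 4.77% of genes with the same trimmed mean, and 9.09% and 4.62% with quantile normalization. It was 10.9% and 4.67% with loess, and 3.64% and 1.04% with the hybridization controls set equal. Over the 14 members above the floor on both arrays, 3 were higher and 5 lower, against 29.0% and 3.12% of the 9360 genes so measured. Their median log2 ratio was -0.18, with 4 above 0 and 10 below 0, whereas the median over those 9360 genes was 0.69. No test stands behind these shares, since genes of 1 pair of arrays are not replicates.

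**Figure D1:**
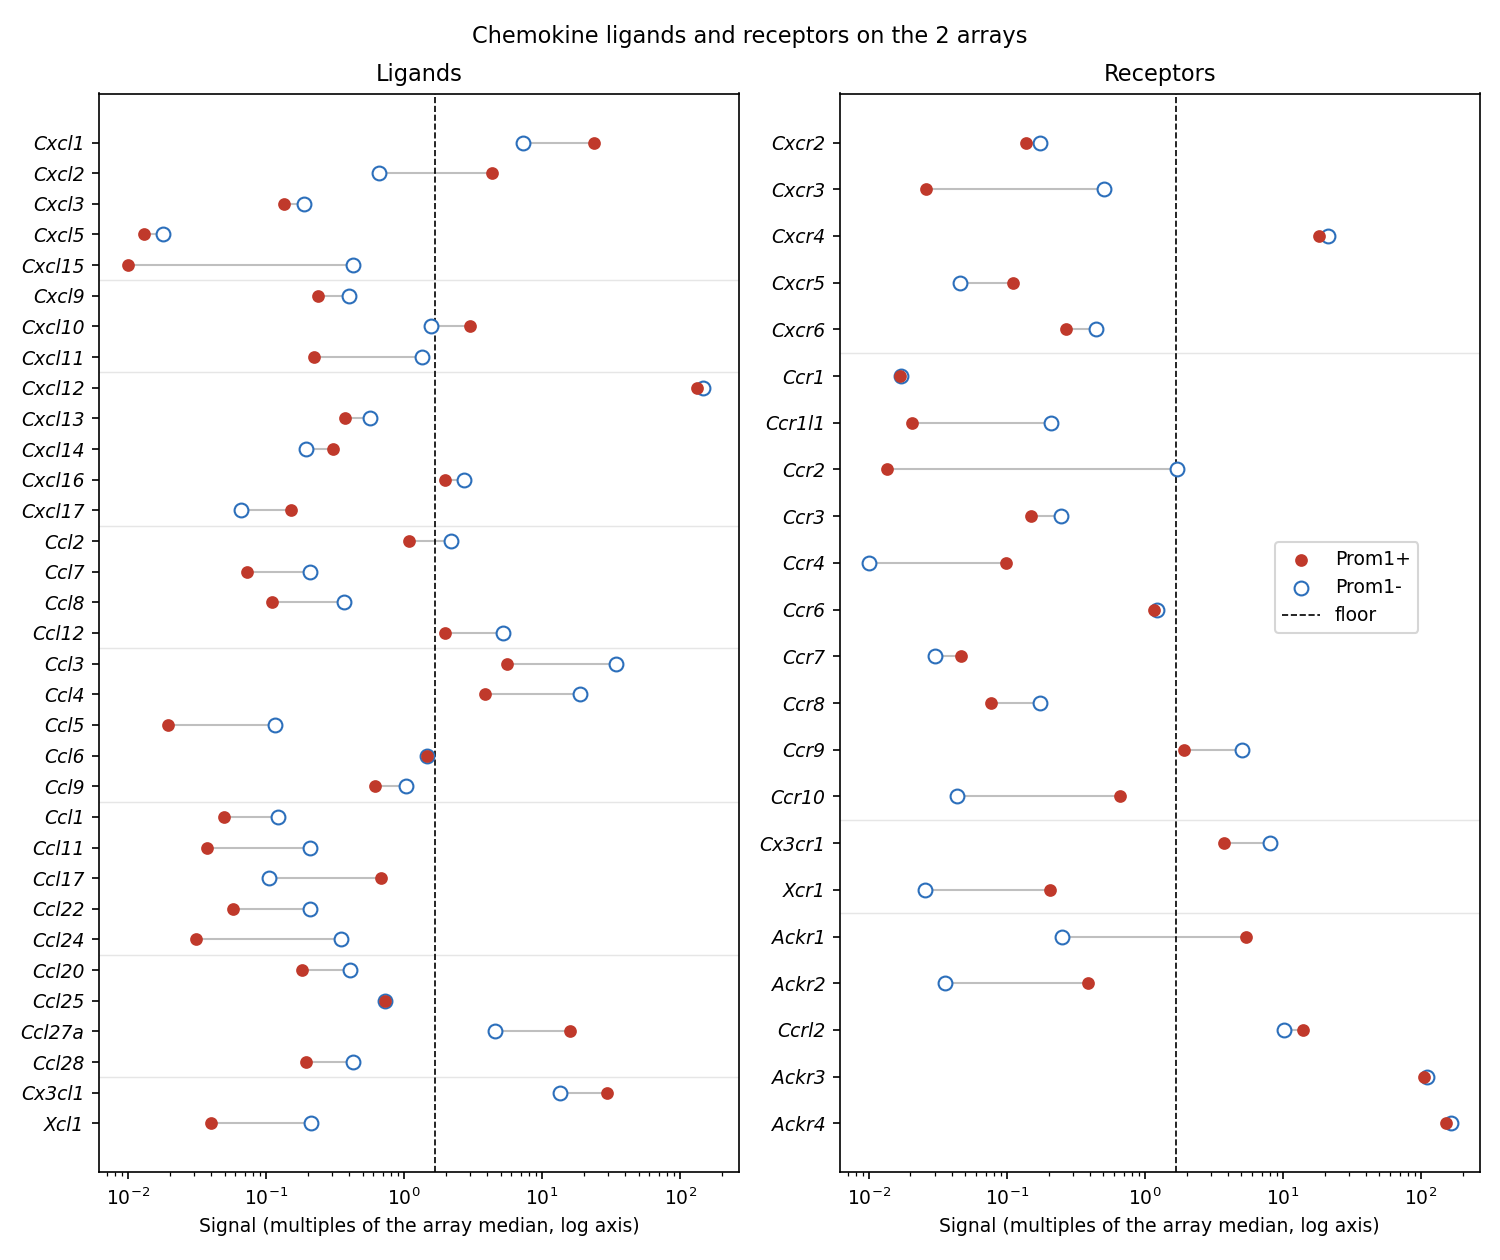
Signals of the 33 ligands and 22 receptors, in multiples of the array median on a log axis, in the Prom1+ array (filled red) and the Prom1- array (open blue). Dashed lines mark the floor of 1.67, left of which 36 members lie on both arrays, and pale lines separate groups of like function.

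The offset between both arrays changed with signal, which bears on each ratio below. Among probe sets with a mean log2 signal of 3 to 4 the median log2 ratio was 0.87, at 7 to 8 it was -0.23 and at 8 to 9 it was -0.64. For members above the floor on both arrays that were past 2-fold, and others where it matters, the ratio is therefore given beside that of its neighbours. These are the 1000 probe sets closest to it in signal among those above the floor on both arrays, described by their median fold. For a member above the floor on 1 array only, no neighbours are given. Raising its other signal to the floor puts it at the most extreme ratio that they could have.

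The neutrophil-attracting CXC ligands were higher for Prom1+ where they were measured. Cxcl1 had a signal of 23.8 for Prom1+ and 7.27 for Prom1-, which is 3.27-fold higher, against a median of 1.82-fold over its neighbours in signal. A second probe set gave 24.1 for Prom1+ and 5.27 for Prom1-, 4.57-fold higher. The third gave 25.8 for Prom1+ and 4.93 for Prom1-, 5.23-fold higher, so that the probe set used is the one with the smallest fold. Cxcl2, which shares the receptor Cxcr2 with Cxcl1, had a signal of 4.33 for Prom1+ and 0.661, beneath the floor, for Prom1-, a difference of at least 2.59-fold. The other ligands of this group, Cxcl3, Cxcl5 and Cxcl15, were under the floor, with signals of 0.010 to 0.428.

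Of the interferon-inducible CXC ligands, which attract activated T cells through Cxcr3, 1 was above the floor. Cxcl10 had a signal of 3.02 for Prom1+ and 1.55, just beneath the floor, for Prom1-, so that it was at least 1.80-fold higher, short of 2-fold. Cxcl9 and Cxcl11 were under the floor. An interferon response motif, GAAA, any 2 bases, then GAAA, was in 2 of the 48 member promoters (4.17%), those of Cxcl10 and Cxcl14, and in 3.44% of all promoters. The RefSeq gene model of Art3 overlaps that of Cxcl10, and Art3 ran the other way, at 4.49 for Prom1+ and 10.5 for Prom1-.

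Cxcl12, the homeostatic ligand of Cxcr4 and Ackr3, was far above the floor on both arrays, with little difference between them. It had a signal of 133 for Prom1+ and 146 for Prom1-, a log2 ratio of -0.13, within the 0.54 by which probe sets of 1 gene differ. A second probe set had a signal of 53.3 for Prom1+ and 44.1 for Prom1-, with the opposite sign, and the third was under the floor. Cxcl16, a membrane-bound ligand of Cxcr6, had a signal of 1.98 for Prom1+ and 2.71 for Prom1-, and its other probe set had 1.77 for Prom1+ and 1.56 for Prom1-. The probe sets of each gene thus differ in sign. As scaled in 4 of 5 other ways the probe sets used stayed below 0, and with the hybridization controls set equal both turned. Cxcl13, Cxcl14 and Cxcl17 were under the floor.

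Cx3cl1, or fractalkine, which is held on the cell surface by a stalk until it is cleaved, was higher for the array labelled Prom1+. It had a signal of 29.4 for Prom1+ and 13.5 for Prom1-, or 2.17-fold higher, beside a median of 1.80-fold over its neighbours in signal. A second probe set had a signal of 3.16 for Prom1+ and 0.735 for Prom1-, at least 1.89-fold higher, and the other 2 were under the floor. The log2 ratio of 1.12 stood 0.28 above the median of those neighbours, which is less than the SD between probe sets of 1 gene. Xcl1, a lymphocyte product that acts through Xcr1, was under the floor.

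Among the CC ligands the largest differences ran the other way. Ccl3, or macrophage inflammatory protein 1 alpha, had a signal of 5.53 for Prom1+ and 34.1 for Prom1-, 6.17-fold lower. Ccl4, its neighbour on chromosome 11 and likewise an attractant of macrophages and T cells, had a signal of 3.86 for Prom1+ and 18.7 for Prom1-, 4.84-fold lower. Their neighbours in signal had median folds of 1.80 and 1.81 in the opposite direction, that is, higher for Prom1+. The RefSeq gene models of Ccl3 and Ccl4 overlap, and each had a single probe set. Ccl5, Ccl6 and Ccl9 of the same group were under the floor, with signals of 0.0194 to 1.48.

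The monocyte-attracting CC ligands, most of which act through Ccr2, were lower for Prom1+ or too dim to compare. Ccl12, a ligand of Ccr2 in the mouse, had a signal of 1.97 for Prom1+ and 5.17 for Prom1-, which is 2.62-fold lower, while its neighbours were 1.53-fold higher. Ccl2 had a signal of 1.08, beneath the floor, for Prom1+ and 2.20, just above it, for Prom1-, so that it was at least 1.31-fold lower. Ccl7 and Ccl8 were under the floor on both arrays. On chromosome 11, which holds 14 members, among them every ligand of these last groups, 5 passed the floor on 1 array or both, of which 3 were lower by 2-fold or more and 0 higher, beside the 2.83% and 16.7% of all genes. On chromosome 5, which holds 10 members, 2 were higher by that rule, Cxcl1 and Cxcl2, and 0 lower. Those 2 are 20.0% of its members, close to the 16.7% of all genes.

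Ccl27a, a ligand of Ccr10 best known from skin, was the only CC ligand that was higher for Prom1+ by the 2-fold rule. It had a signal of 15.9 for Prom1+ and 4.55 for Prom1-, 3.49-fold higher, beside 1.81-fold for its neighbours in signal. Another 2 probe sets, which match 5 gene symbols each, Ccl27a and Ccl27b among them, lay outside the rule and gave like values. They had 12.3 for Prom1+ and 3.48 for Prom1-, or 3.53-fold higher, and 16.8 for Prom1+ and 5.03 for Prom1-, or 3.33-fold higher. The signal may come from any gene of that near-identical family, and the Ccl27a model also overlaps that of Il11ra1. The other homeostatic CC ligands, Ccl20, Ccl25 and Ccl28, and all 5 ligands of the eosinophil and Ccr4 or Ccr8 group, Ccl1, Ccl11, Ccl17, Ccl22 and Ccl24, were under the floor.

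**Figure D2:**
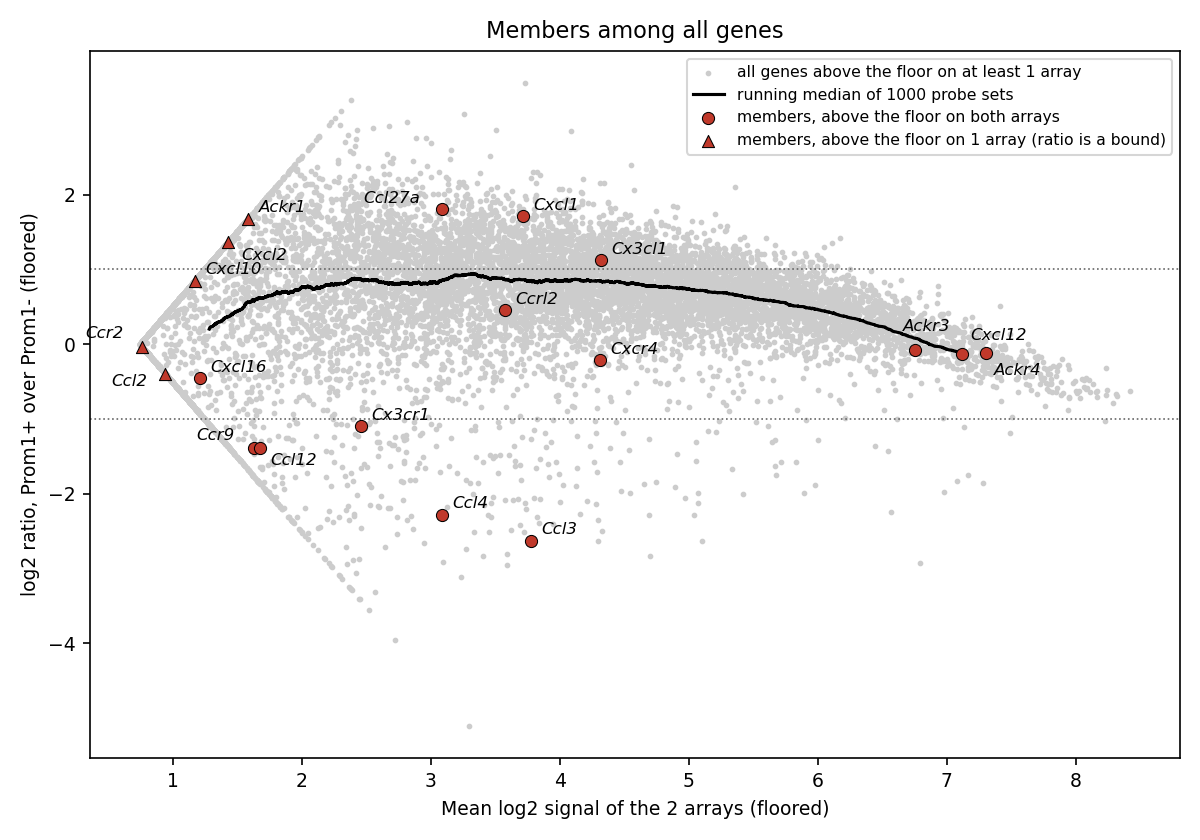
Log2 ratio, Prom1+ over Prom1-, against the mean log2 signal of both arrays, with signals under the floor raised to it. Genes above the floor on at least 1 array are grey, and the 19 members among them are red. Dotted lines mark 2-fold, the black line follows the median of 1000 neighbouring probe sets, and Ccl3 and Ccl4 lie farthest from it, while Cxcl12, Ackr3 and Ackr4 lie close to it.

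Among the G protein-coupled receptors, Cxcr4 was clearly above the floor on both arrays. Cxcr4, the signalling receptor of Cxcl12, had a signal of 18.4 for Prom1+ and 21.4 for Prom1-, a log2 ratio of -0.22, within the SD between probe sets of 1 gene. Its neighbours in signal, however, had a median of 1.80-fold higher, so that it lay 1.06 below them on the log2 scale, and under loess it was called at least 2-fold lower, at -1.06. Cxcr2, Cxcr3, Cxcr5 and Cxcr6 were under the floor, with signals of 0.0258 to 0.506.

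Cx3cr1, the fractalkine receptor of microglia, was lower for the array labelled Prom1+. It had a signal of 3.76 for Prom1+ and 8.02 for Prom1-, or 2.13-fold lower while its neighbours were 1.82-fold higher, and its other probe set was under the floor, at 0.704 for Prom1+ and 1.47 for Prom1-. Ccr9, the receptor of Ccl25 on thymic and gut-homing lymphocytes, had a signal of 1.91 for Prom1+ and 5.01 for Prom1-, 2.62-fold lower, while its neighbours were 1.51-fold higher. That value rests on 1 of 5 probe sets, since the other 4 were under the floor. Ccr2, the monocyte receptor of Ccl2 and Ccl12, was at 0.0135 for Prom1+ and 1.71 for Prom1-, barely over the floor, and its other 3 probe sets were under it, so that its bound of 1.02-fold lower carries no direction. The other 8 CC receptors and Xcr1 were under the floor.

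**Figure D3:**
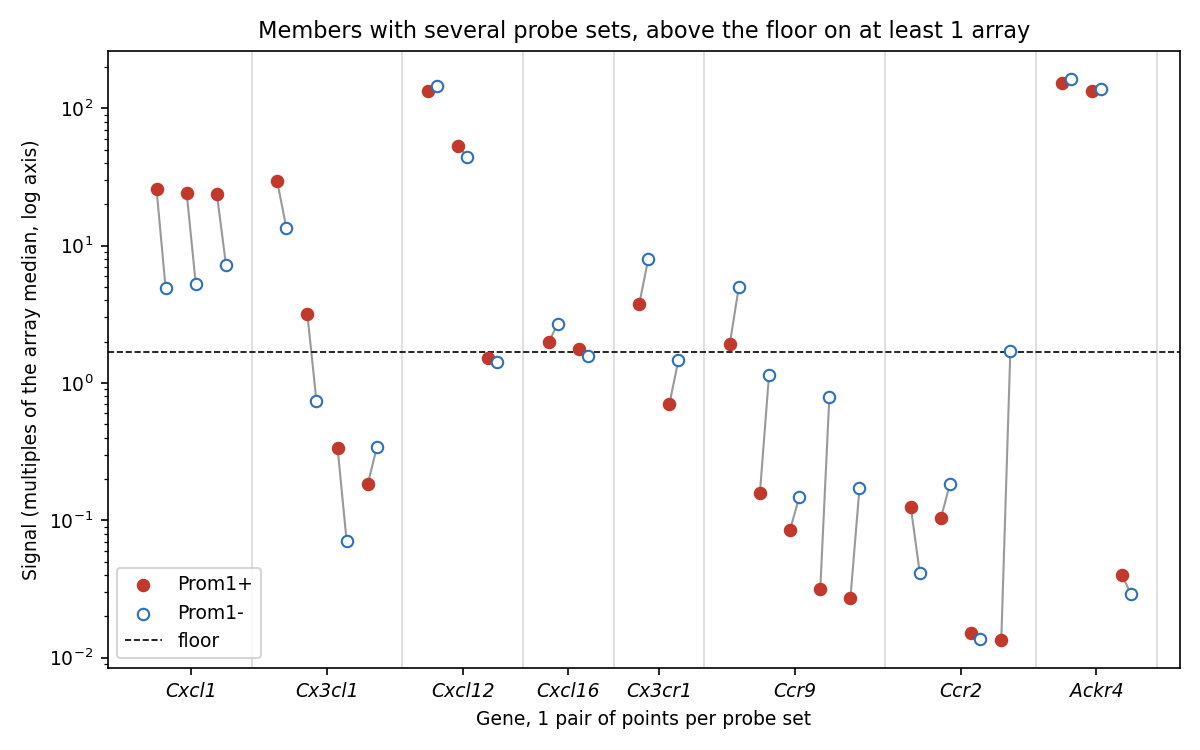
Signals of each probe set of the 8 members that have several and were above the floor on at least 1 array, in multiples of the array median on a log axis, with the Prom1+ array (filled red) left of the Prom1- array (open blue). All 3 probe sets of Cxcl1 show the same direction, whereas Ccr9 and Ccr2 rest on 1 probe set and the probe sets of Ackr4 disagree on its level.

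The atypical receptors had 4 of 5 members above the floor. Ackr1 is the Duffy antigen receptor that binds inflammatory CC and CXC ligands and carries them across venular endothelium. It had a signal of 5.36 for Prom1+ and 0.252, beneath the floor, for Prom1-, a difference of at least 3.20-fold. Red blood cells carry this receptor too. Of 2 genes of red cells picked after their values were seen, Hba-a1, which encodes alpha globin, was under the floor, at 0.0146 for Prom1+ and 0.0348 for Prom1-, and Alas2, the heme synthesis enzyme of red cell precursors, was at 7.51 for Prom1+ and 2.33 for Prom1-, 3.22-fold higher. As probe sets that match several genes were left out, the Hba-a1 value does not by itself show alpha globin transcript to be absent. The part of red cell transcripts in the Ackr1 signal was not tested. Cadm3, whose gene model overlaps that of Ackr1, was under the floor.

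Ackr3, the scavenger of Cxcl12 once called Cxcr7, had a signal of 105 for Prom1+ and 111 for Prom1-, a log2 ratio of -0.08. Ackr4, which removes Ccl19, Ccl21 and Ccl25, had a signal of 152 for Prom1+ and 164 for Prom1-, and a second probe set had 135 for Prom1+ and 138 for Prom1-. These differences were far within the SD between probe sets. The third Ackr4 probe set, however, was at 0.0397 for Prom1+ and 0.0290 for Prom1-. The Ackr4 model overlaps that of Acad11, an enzyme of fatty acid breakdown with a probe set of its own at 11.8 for Prom1+ and 4.33 for Prom1-, and which transcript the bright Ackr4 probe sets report was not tested. Ccrl2, which binds the attractant chemerin, had a signal of 13.9 for Prom1+ and 10.2 for Prom1-, 1.37-fold, less than the 1.83-fold of its neighbours in signal. Ackr2, the scavenger of inflammatory CC ligands, was under the floor.

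Few ligands were measured together with their receptor. Of 29 ligand and receptor pairs listed from common knowledge, with a probe set for each partner, both were above the floor on at least 1 array in 5. In 3 of these, Cxcl12 with Cxcr4, Cxcl12 with Ackr3 and Cx3cl1 with Cx3cr1, both partners were above the floor on both arrays. Cx3cl1 and Cx3cr1 differed in opposite directions, the ligand 2.17-fold higher and the receptor 2.13-fold lower for Prom1+. The receptors of Cxcl1, Cxcl2, Cxcl10 and Ccl27a, namely Cxcr2, Cxcr3 and Ccr10, were under the floor, and so was Ccr1, a receptor of Ccl3.

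Markers of some cells other than endothelium, those of microglia and macrophages among them, moved with the members that were lower for Prom1+. Of 14 markers of microglia and macrophages, 12 were above the floor, all of them below 0 in log2 ratio, and 9 were at least 2-fold lower. Their summed signal was 151 for Prom1+ and 348 for Prom1-, and 2 of the defining markers, Itgam and Ptprc, were under the floor on both arrays. Csf1r, the receptor that microglia depend on, had a signal of 33.6 for Prom1+ and 71.5 for Prom1-, and C1qb, a complement gene of microglia, had 31.8 for Prom1+ and 78.7 for Prom1-. Cx3cr1 was as far below 0 as Csf1r, with log2 ratios of -1.09 each, whereas Ccl3 and Ccl4, at -2.62 and -2.28, were lower than any of these 12 markers, the lowest of which, Fcer1g, was at -1.82. What part microglia or macrophages had in Ccl3, Ccl4, Ccl12, Ccr9 or Cx3cr1 was not tested, and in such bulk samples fewer cells of a type and less RNA per cell cannot be told apart.

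Mural markers, those of pericytes and smooth muscle, moved likewise, 9 of 10 being lower by 2-fold or more, with a sum of 316 for Prom1+ and 1025 for Prom1-. Perivascular macrophage markers summed to 3.11 for Prom1+ and 11.2 for Prom1-, with 3 of 6 above the floor and those for Prom1- only, and Lyve1 was under it. All 6 T cell, 6 neutrophil and 4 B cell markers were under the floor on both arrays. Pf4, a platelet chemokine whose symbol lies outside the rule, had a signal of 1.37, beneath the floor, for Prom1+ and 4.42 for Prom1-, at least 2.64-fold lower. Of 6 fibroblast markers 2 were lower, among them Col1a2 by 5.49-fold, and 0 higher. Pdgfra of that list ran the other way, at 2.80 for Prom1+ and 0.687, beneath the floor, for Prom1-, at least 1.67-fold. With the hybridization controls set equal 1 fibroblast marker was lower and 1 higher. Of 6 neuron markers 3 were lower, Syt1 by at least 6.09-fold. Glial lists were mixed as scaled here. Of 7 astrocyte markers 1 was lower (S100b, 5.11-fold), and Gja1 was 1.26-fold in the other direction. Under loess, quantile, the same trimmed mean and the pan-endothelial scaling, 2 astrocyte markers were lower and 0 higher. With the hybridization controls set equal 1 was lower and 1 higher. Of 6 oligodendrocyte markers 1 was lower (Mbp, 2.28-fold) and 1 higher (Cnp, 2.84-fold), which under loess became 0 and 0. Endothelial markers did not move with these lists as scaled here, since 0 of 10 reached 2-fold and their sum was 1284 for Prom1+ and 1344 for Prom1-. With the same trimmed mean, however, 9 of the 10 were below 0 and 1 was at least 2-fold lower. Their median log2 ratio was then -0.27, beside -2.41 for mural and -1.80 for microglia and macrophage markers. With the hybridization controls set equal these counts changed, to 0 of 14 microglia and macrophage markers and 3 of 10 mural markers lower by 2-fold or more, with 9 of the 12 and 9 of the 10 still below 0, and 7 of 10 endothelial markers higher.

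**Figure D4:**
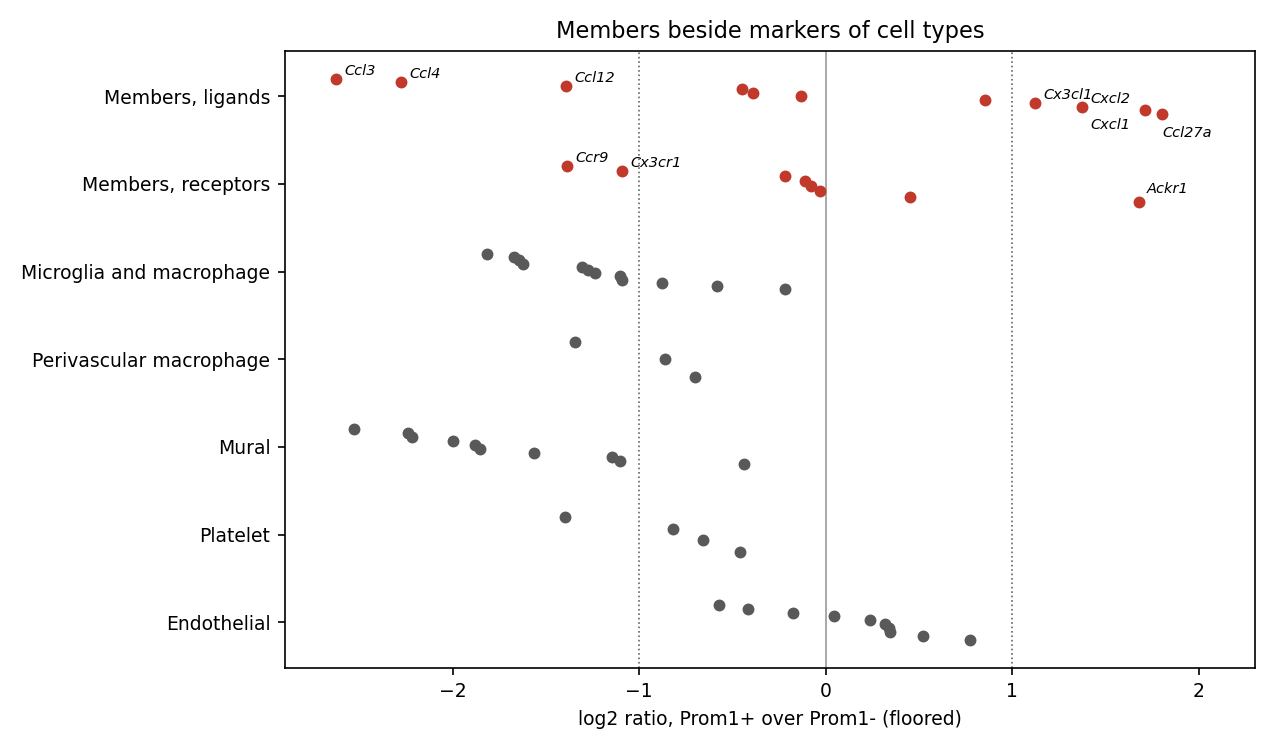
Log2 ratios, Prom1+ over Prom1- with floored signals, of the ligands and receptors (red, those past 2-fold named) and of cell type markers (grey), 1 point per gene above the floor on at least 1 array, with dotted lines at 2-fold. The microglia, mural and platelet markers above the floor all lie below 0 as scaled here (not all with the hybridization controls set equal), on the side of Ccl3, Ccl4, Ccl12, Ccr9 and Cx3cr1, and the 10 endothelial markers lie on both sides of 0.

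Genes that act with chemokines were described from 4 lists, whose counts stand beside the 16.7% of all genes that were higher and the 2.83% that were lower, or 29.0% and 3.12% of genes above the floor on both arrays. Of 33 genes that couple receptors to movement, 5 (15.2%) were higher for Prom1+ by the 2-fold rule and 2 lower, with a median log2 ratio of 0.62 over those above the floor on both arrays, close to the 0.69 of all such genes. Grk5, a kinase that turns receptors off, had a signal of 24.4 for Prom1+ and 7.34 for Prom1-, 3.32-fold higher, and Rgs3, which shortens G protein signals, had a signal of 29.4 for Prom1+ and 9.66 for Prom1-, 3.04-fold higher. Rgs1, a regulator of the same kind that is prominent in leukocytes, ran the other way at 2.41 for Prom1+ and 10.8 for Prom1-, 4.49-fold lower.

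Of 20 genes that present chemokines on the cell surface or cleave them, 4 (20.0%) were at least 2-fold higher and 3 lower, with a median log2 ratio of 0.56. Ext1, which with Ext2 builds heparan sulfate chains that hold chemokines, had a signal of 8.70 for Prom1+ and 1.81 for Prom1-, 4.80-fold higher, and Ext2 was 3.31-fold higher. Among the core proteins that carry such chains, Sdc4 was lower at 6.33 for Prom1+ and 27.7 for Prom1-, as were Sdc2 at 14.2 for Prom1+ and 50.7 for Prom1-, and Gpc1, by at least 2.03-fold. The other core proteins of the list were short of 2-fold in the opposite direction, Sdc1 at 1.45-fold, Sdc3 at 1.49-fold and Hspg2 at 1.23-fold. The sheddases of Cx3cl1 and Cxcl16 were short of 2-fold, Adam10 at 101 for Prom1+ and 89.9 for Prom1-, and Adam17 at 70.6 for Prom1+ and 36.2 for Prom1-.

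Among 19 genes of NF-kappaB induction 5 (26.3%) were at least 2-fold higher and 1 lower, with a median log2 ratio of 0.75. Birc3, itself an NF-kappaB target, had a signal of 18.0 for Prom1+ and 4.31 for Prom1-, 4.17-fold higher, and Ikbkg, the regulatory subunit of the IkappaB kinase, was 3.87-fold higher. Nfkbia, the inhibitor induced by NF-kappaB, had a signal of 180 for Prom1+ and 222 for Prom1-, and Tlr4, the endotoxin receptor, was 2.35-fold lower. Of 10 genes of interferon induction 3 were higher and 0 lower, with a median of 0.79. These were the kinase Tyk2, 3.10-fold higher, and the factors Irf7, 2.94-fold, and Irf9, 2.41-fold. The medians of the 4 lists, 0.56 to 0.79, lay on both sides of the 0.69 of all genes above the floor on both arrays. Under loess, which removes the offset that changes with signal, the coupling list had 0 higher and 4 lower, the presentation list 1 and 4, the NF-kappaB list 2 and 1 and the interferon list 0 and 0. By that scaling 3.29% of all genes were higher and 4.67% lower. Ext1, Birc3 and Ikbkg stayed at least 2-fold higher and Rgs1, Sdc4, Sdc2 and Tlr4 at least 2-fold lower, and the sign of Nfkbia and Adam10 turned.

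How firmly each member held its side of 2-fold differed. In 10 alternatives of floor, scaling and choice of probe set, Ccl3 and Ccl4 were at least 2-fold lower in all 10, Ackr1 and Cxcl2 at least 2-fold higher in 9, the exception being a floor of 200 on the target scale. Cxcl1 stayed at least 2-fold higher in 8, falling short under quantile and loess. Cx3cr1 stayed at least 2-fold lower in 9 and Ccl12 in 8. Both fell short with the hybridization controls set equal, and Ccl12 also with a floor of 200, at a log2 ratio of -0.63. Cx3cl1 reached 2-fold in 5 of the 9 that gave it a value, and fell short with the same trimmed mean, with the pan-endothelial genes set to 0, under quantile and under loess. Ccl27a reached 2-fold in 8 of 9. Ccr9 did so in 7 of 9, falling short with a floor of 200, at -0.58, and with the hybridization controls set equal. None of these 10 members changed sign under any of the alternatives, but Cxcl12, Cxcl16, Cxcr4, Ccrl2, Ackr3 and Ackr4 did in at least 1.

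**Figure D5:**
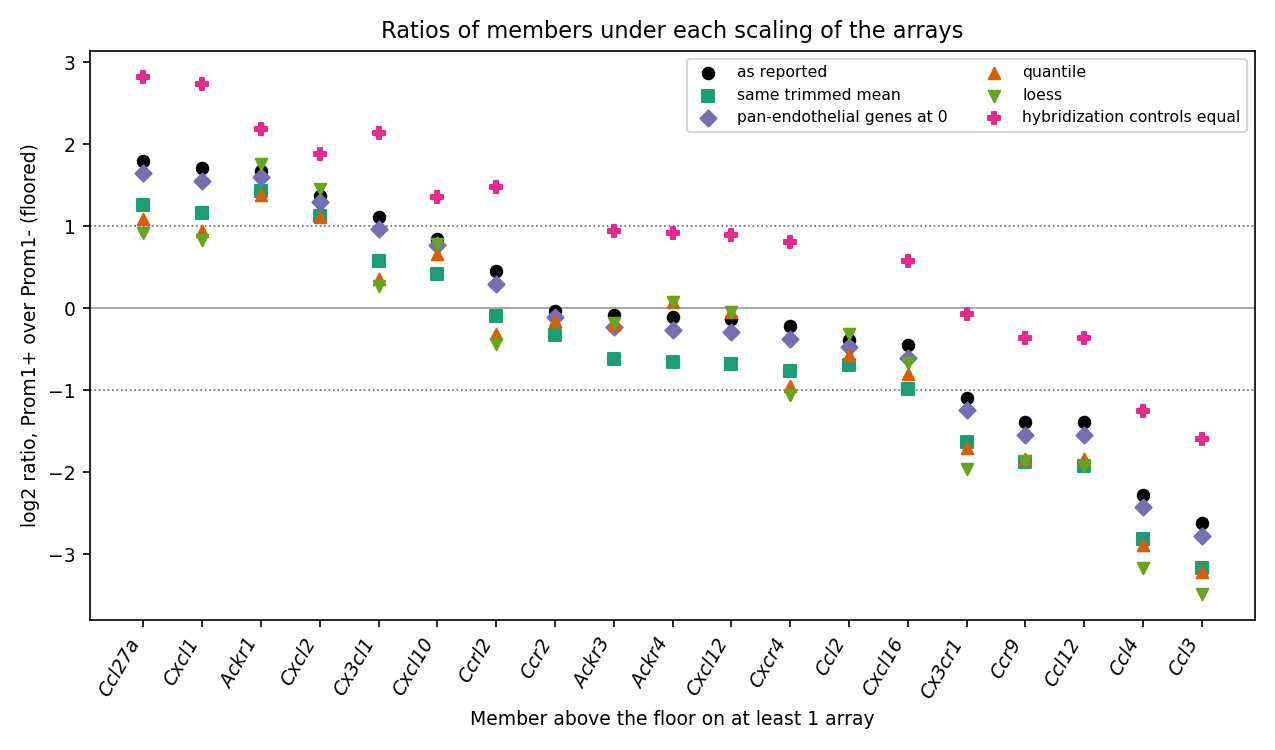
Log2 ratios, Prom1+ over Prom1- with floored signals, of the 19 members above the floor on at least 1 array, as reported (black) and under 5 other scalings, with dotted lines at 2-fold. Ccl3 and Ccl4 stay below -1 and Ackr1 and Cxcl2 stay above 1 under all of them, while setting the hybridization controls equal moves most members up.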

How the data were processed

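The 2 arrays, 1 of CD31+CD133+ (Prom1+) and 1 of CD31+CD133- (Prom1-) cells, were scanned with the GeneChip software, scaled by the authors to a target signal of 500 and normalized in GeneSpring, and MAS5 is named in the submitters' notes. Each deposited value is a log2 ratio of a probe set's signal to its array's median signal, and the lowest is -6.64, a signal of 0.01. Detection calls and the signals before this step were not used here. Precision is limited by the number of arrays, and no test was made. As a measure of background, the 27 Bacillus control probe sets reached 0.234 for Prom1+ and 0.276 for Prom1-.

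Signals were taken back from log2. The floor, 100 on the target scale of 500, was translated as 0.2 times the mean of both arrays' 2% trimmed means. The platform annotation lists 35890 of 45101 probe sets, 34958 of them with 1 symbol, 932 with several, which were left out, and 9211 are not listed. All 55 members' symbols match RefSeq's present ones. No protein sequences were used here. The members and gene lists were chosen with earlier results of these data known. Named were every member above the floor on at least 1 array, and from the other lists genes with the highest mean signals or largest ratios each way, and otherwise genes that a result turned on. Alternatives were other floors, 5 scalings (the same trimmed mean, pan-endothelial genes at a ratio of 0, quantile, loess with a span of 0.2, and hybridization controls equal), the mean over probe sets, a run without _x_at and _s_at probe sets, and folds of 1.5 and 3. The counting rules were tried on simulated data with changes planted only in genes well above the floor and no offset between arrays. That trial does not cover members near the floor or the offset seen here. Tables were computed in Python 3.11.15 with pandas 2.3.3 and numpy 2.4.6, loess with statsmodels 0.14.6 and figures with matplotlib 3.10.9.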

Additional observations from a re-analysis of the deposited data

How the results depend on the processing

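The count of members at least 2-fold higher in the Prom1+ array was 5, and it became 3 with a floor of 200, 12 with no floor, 3 with quantile normalization, 2 with loess and 3 at 3-fold. The count of members at least 2-fold lower, also 5, became 3 with a floor of 200, 22 with no floor, 2 with the hybridization controls set equal and 2 at 3-fold. The other settings left each count within 1.5 times. The median log2 ratio of members above the floor on both arrays, -0.18, became 0.85 with the hybridization controls set equal. The split of all genes, 3045 higher and 515 lower, became 879 and 867 with the same trimmed mean, 2222 and 567 with pan-endothelial genes set to 0, 689 and 841 with quantile normalization, 598 and 849 with loess and 8644 and 189 with the hybridization controls equal, and the median over all genes moved between 0.03 with loess and 1.70 with those controls, against 0.69. The 18 hybridization controls themselves had a median log2 ratio of -1.02. For single members, 124 of 178 values moved by less than the SD between probe sets of 1 gene and 54 by more. No paired analysis was possible because each population has 1 array, and for the same reason no array could be left out. The cause of these shifts was not tested. Signals near the floor, such as those of Ccr2, Ccl2, Cxcl10 and Cxcl16, give no reliable fold. The Prom1+ signals of Ccl12 and Ccr9, at 1.97 and 1.91, also lay near it.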

Other observations

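Further chemokines are measured only by probe sets that match several genes, which the rule left out. One such probe set matches 10 symbols, Ccl19 among them, a ligand of Ccr7 and Ackr4. Its signal was 4.12 for Prom1+ and 1.65, just beneath the floor, for Prom1-, a difference of at least 2.46-fold. A probe set shared by Ccl21 genes was under the floor, at 0.863 for Prom1+ and 0.146 for Prom1-. Their receptor Ccr7 was under it too, at 0.0467 for Prom1+ and 0.0302 for Prom1-.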
